A study of Mus musculus with 4 samples.

Results

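The receptors through which natural killer (NK) cells sense interleukin (IL)-12, IL-18, IL-21, IL-10 and the interferons (IFN) were examined for N6-methyladenosine (m6A) peaks. The genes were Il12rb1, Il12rb2, Il18r1, Il18rap, Il21r, Ifngr1, Ifngr2, Ifnar1, Ifnar2 and Il10ra, and their peaks were taken as the distinct rows of the authors' peak list that carried the mouse Ensembl identifier of one of these genes. There were 14 such peaks of 20727 in all. Splenic NK cells came from wild-type C57BL/6 mice, and per its methods the study had expanded the cells in the animals by injecting an IL-15 expression plasmid, pLIVE-IL-15, 1 to 2 months before sorting. Poly(A) RNA was fragmented and either precipitated with an antibody against m6A (2 libraries) or left untreated as input (2 libraries), and the pairs of libraries differ in no other label. The labels do not say whether the replicates came from separate mice, and for its mice in general the methods state an age of 6 to 10 weeks.

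IL-12 and IL-18 are the classic pair of cytokines that together drive IFN-γ secretion by NK cells, and IL-21 promotes their maturation and cytotoxicity. The receptors of IL-12, IL-21, IL-10 and the interferons carry no kinase of their own and signal through JAK kinases and STAT factors, whereas the IL-18 receptor belongs to the IL-1 receptor family and signals through MyD88 and IRAK kinases. m6A is placed on mRNA by a complex around METTL3, mostly at DRACH sites, and is often found in the last exon around the stop codon and in the 3′ untranslated region (UTR).

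The list gives 1 fold enrichment and 1 p-value for each peak, made from all libraries together. The fold enrichment is the ratio of immunoprecipitate to input reads and significance is given as a log10 p, which is more negative for a lower p-value. No value per library could be had, so no peak has an error between replicates, no difference between peaks was tested, and every order given here is a description. The depth of the libraries is unknown. As a check on the cell type, a peak was found in 10 of 10 NK marker genes, 3 of 7 T cell, 4 of 6 B cell, 7 of 7 myeloid and 3 of 4 red cell marker genes, beside 46.3% of all protein-coding genes. The T cell markers Cd4, Cd8a, Cd8b1 and Cd5 and the B cell marker Ms4a1 were among those without a peak. Strong peaks, with a fold enrichment of at least 5, were found at the T cell markers Cd3d, Cd3e and Cd3g (up to 31.6) and the B cell markers Cd79a and Pax5 (up to 75.9), and at 0 NK, myeloid and red cell markers. The Cd3g peak of 31.6 (log10 p -19.3) lay on 0 nt of a coding isoform, and the strong Cd3d peak had a log10 p of -1.63. By p-value the order differed. The lowest were at red cell markers (log10 p -2440 at Hbb-bs), followed by -322 at the NK marker Nkg7 and the myeloid marker Csf1r. A peak is not an expression level, and the part of other cells in the receptor peaks was not tested.

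The sites that could carry the mark are shown first. DRACH stands for A, G or T, then A or G, then A, then C, then A, C or T. For each gene the DRACH site nearest the centre of its most significant peak is printed below in the sense of the mRNA, 5′ to 3′ and as DNA, with the 5 bases of the site in capitals (GRCm38, GENCODE transcripts).
Il12rb1 (chr8:70821010-70821030, plus strand): caggacgcAGACCcaggcctt
Il12rb2 (chr6:67291323-67291343, minus strand): agctcattAAACTcatttaaa
Il18r1 (chr1:40500511-40500531, plus strand): tagagcagAGACTgtgctgaa
Il18rap (chr1:40551579-40551599, plus strand): taaataggAAACCagtaagca
Il21r (chr7:125633433-125633453, plus strand): ggggagagGGACCatgagcct
Ifngr1 (chr10:19609851-19609871, plus strand): aaatgccaAGACTatcaaagg
Ifngr2 (chr16:91563685-91563705, plus strand): ctggtctaGGACAgccaaggc
Ifnar1 (chr16:91507229-91507249, plus strand): aaaaaaagAAACAccacgggc
Ifnar2 (chr16:91393799-91393819, plus strand): gtccttagAGACTtacttcca
Il10ra (chr9:45254197-45254217, minus strand): gaaggtcaTGACCctaatctg
The Ifnar2 site lies in the coding sequence and the others lie in a 3′ UTR. A DRACH match marks a place where the mark could be, not a methylated base, since a peak does not resolve single bases.

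All 10 receptor genes had a peak. Among all 21951 annotated protein-coding genes the share was 46.3%, whether or not a gene is expressed in NK cells. Of the receptor genes, 6 had 1 peak and 4 had 2 peaks. A fold enrichment of at least 5, called strong because the study used that value to choose genes for its pathway analysis, was reached by 1 receptor gene, Il21r, whereas 43.4% of protein-coding genes with a peak had a strong peak. By peaks this was 1 of 14, against 34.6% of all peaks. At a fold enrichment of at least 2 there were 3 receptor genes with 1 such peak each, against 75.5% of coding genes with a peak and 63.9% of all peaks. A peak-calling p-value under 0.001 was met by 12 of the 14 receptor peaks, against 61.5% of all peaks, and by 9 of the 10 genes, against 73.3%. Receptor peaks were thus mostly called with low p-values at modest enrichment. Their median fold enrichment was 1.66 (interquartile range 1.39 to 1.92), beside 2.66 for all peaks and 2.0 (1.6 to 3.32) for the 11032 other peaks with the 3′ UTR label. Their median log10 p was -12.1, beside -4.83 for the latter. Read numbers, on which a p-value also rests, were not analysed here. Many peaks of high fold in the list had p-values near its weakest (log10 p -1.3). The shares of strong peaks and the medians over other peaks include these weakly called peaks and were not matched for p-value.

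**Figure D1:**
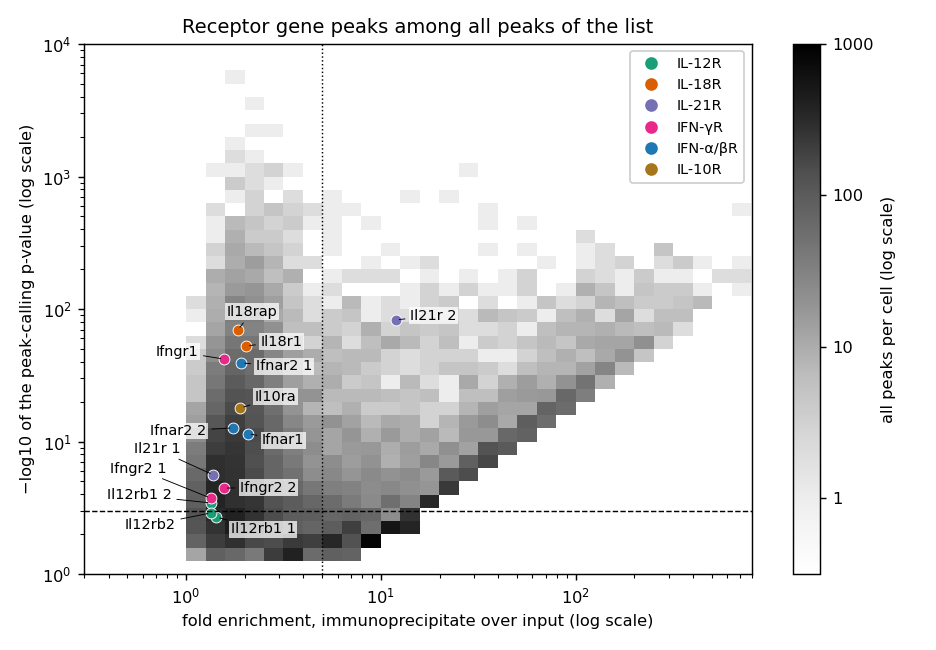
Fold enrichment of each peak (horizontal, log scale) against the size of the log10 of its p-value (vertical, log scale). Grey cells count all peaks, coloured points are the 14 receptor peaks (a number after the gene gives the order of its peaks along the mRNA), the dotted line is a fold enrichment of 5 and the dashed line a p-value of 0.001. The second Il21r peak at 11.9 stands right of the dotted line and the other receptor peaks lie between 1.34 and 2.07.

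The IL-12 receptor had the 3 peaks with the highest p-values of the receptor genes. Il12rb1 (ENSMUSG00000000791), which encodes the chain shared by the IL-12 and IL-23 receptors, had 2 peaks in exon 16, the last exon. The first (chr8:70820795-70820885, 91 nt) had a 1.43-fold enrichment (log10 p -2.69), and it held the stop codon and 14 nt of the 3′ UTR. The second (chr8:70820975-70821124, 150 nt) followed 89 nt further on, with a 1.35-fold enrichment (log10 p -3.44). These peaks lay on either side of a p-value of 0.001 and differed by a ratio of 1.06 in fold.

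Il12rb2 (ENSMUSG00000018341), which encodes the chain that recruits STAT4, had 1 peak of 61 nt (chr6:67291318-67291378) with a 1.35-fold enrichment (log10 p -2.9). It touched 0 nt of the longest coding isoform, Il12rb2-201, whose 3′ UTR of 185 nt ends upstream of the peak. It covered the last 61 nt of Il12rb2-202, an annotated coding isoform with a 3′ UTR of 885 nt. The same 61 nt lie in an exon of Serbp1 on the opposite strand. Serbp1 was assigned 7 peaks of its own, and the nearest lay 236 nt away with a 1.94-fold enrichment (log10 p -2.81). Whether the library kept strand is not given in the sources used here, so reads of Il12rb2 and Serbp1 cannot be told apart in this peak. The other 9 receptor genes each had a peak clear of the exons of other genes.

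Both chains of the IL-18 receptor had 1 peak each. The pair resembled each other in fold, significance and, on the longest coding isoforms, place. Il18r1 (ENSMUSG00000026070) encodes the ligand-binding chain, and its peak (chr1:40500166-40500854, 689 nt) had a 2.03-fold enrichment (log10 p -52.7). Il18rap (ENSMUSG00000026068) encodes the accessory chain, and its peak (chr1:40551376-40551705, 330 nt) had a 1.84-fold enrichment (log10 p -69.4). By significance they stood at percentiles 94.4 and 95.9 of all peaks with the 3′ UTR label, and by fold at percentiles 51.0 and 40.8. Both peaks were far from the stop codon, with centres 1820 and 2452 nt past it, and both ran to the last annotated base of the mRNA. The Il18r1 peak filled 31.8% and the Il18rap peak 12.6% of a long 3′ UTR of 2164 and 2617 nt. Isoforms of Il18r1 that end upstream (Il18r1-203, Il18r1-204 and Il18r1-205, with a coding sequence of at most 1119 nt against 1614 nt in the longest) were not touched.

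Il21r (ENSMUSG00000030745) encodes the chain that binds IL-21 and pairs with the common γ chain. It had the most unequal peaks of the receptor genes. The first (chr7:125632552-125632911, 360 nt) had a 1.38-fold enrichment (log10 p -5.6), and the second (chr7:125633301-125633570, 270 nt), 389 nt downstream in the same last exon, had an 11.9-fold enrichment (log10 p -82.8). The ratio of these folds was 8.62. Among 1497 genes with exactly 2 peaks in the last exon the median ratio was 1.34, and 44 genes, Il21r included, had a ratio of at least that of Il21r. Of 676 peaks in the list with a p-value at or below that of the second Il21r peak, 219 had a fold enrichment at least as high, and the median over all 676 was 2.81.

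The Il21r peaks fall on different parts of its annotated isoforms. The first carried the 3′ UTR label but lay wholly in the coding sequence of the longest isoform, Il21r-201, ending 80 nt before the end of the stop codon. It lies in the 3′ UTR only on Il21r-202, whose coding sequence is shorter (807 against 1590 nt, stop codon included). The second peak began 28 nt past the last base of Il21r-202 and reached the last base of Il21r-201, so that of the annotated coding isoforms it lies on Il21r-201 alone. It covered 46.6% of the 579 nt of 3′ UTR of Il21r-201.

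For the IFN-γ receptor the 2 chains differed. Ifngr1 (ENSMUSG00000020009), the ligand-binding chain, had 1 wide peak (chr10:19609480-19610229, 750 nt) with a 1.57-fold enrichment (log10 p -41.9). It ran from 209 nt before the end of the stop codon to the last base of the mRNA and covered 100% of the 541 nt of 3′ UTR. Ifngr2 (ENSMUSG00000022965), the chain that binds JAK2, had 2 narrow peaks near the start of a 3′ UTR of 2618 nt, of which they filled 13.8%. The first (chr16:91563051-91563259, 209 nt) had a 1.34-fold enrichment (log10 p -3.74), and the second (chr16:91563617-91563767, 151 nt) had 1.56 and -4.46. Ifngr1 and the second Ifngr2 peak were thus nearly equal in fold and far apart in p-value.

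Type I interferon binds IFNAR1 and IFNAR2 together. Ifnar1 (ENSMUSG00000022967) had 1 peak (chr16:91507021-91507441, 421 nt) with a fold enrichment of 2.07, the second highest of the 14 after Il21r, and a log10 p of -11.5. It filled the last 20.7% of the 3′ UTR of 2030 nt of Ifnar1-201, the longest coding isoform. The same 421 nt end Ifnar1-202, whose 3′ UTR is 918 nt. Ifnar2 (ENSMUSG00000022971) had 2 peaks. The downstream peak (chr16:91404869-91405469, 601 nt) lay in the 3′ UTR with a 1.75-fold enrichment (log10 p -12.7), and it ran 103 nt past the end of Ifnar2-202 to stop 120 nt short of the end of Ifnar2-201.

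The upstream Ifnar2 peak was the widest of the receptor peaks. It spanned 7446 nt of the genome (chr16:91391801-91399246), with a 1.92-fold enrichment (log10 p -39.2), and carried the 3′ UTR label. On Ifnar2-201, the isoform with the longest coding sequence (1542 nt with the stop codon), its exonic part was 264 nt of coding sequence in exons 6, 7 and 8 (78, 157 and 29 nt). On Ifnar2-203, which ends in a longer version of exon 7, it held the stop codon and all 89 nt of the 3′ UTR. Ifnar2 is known to make a soluble receptor from such shortened isoforms beside the membrane-bound chain, and the peak does not separate the isoforms. Of its exonic bases, 235 nt also belong to Gm21970, a gene annotated across Ifnar2 and its neighbour Il10rb. A further peak that the list assigned to Il10rb (chr16:91391721-91411885, fold enrichment 1.72, log10 p -35.1) contained both Ifnar2 peaks, so reads there may count in more than 1 row. Il10rb encodes the other chain of the IL-10 receptor.

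Il10ra (ENSMUSG00000032089), the ligand-binding chain of that receptor, had 1 peak (chr9:45253867-45254554, 688 nt) with a 1.9-fold enrichment (log10 p -17.9). It filled 40.6% of a 3′ UTR of 1693 nt and stopped 30 nt before the last base. The shorter isoform Il10ra-202 ends inside it, so that 28 nt of the peak are shared by both isoforms and 660 nt lie past that end.

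**Figure D2:**
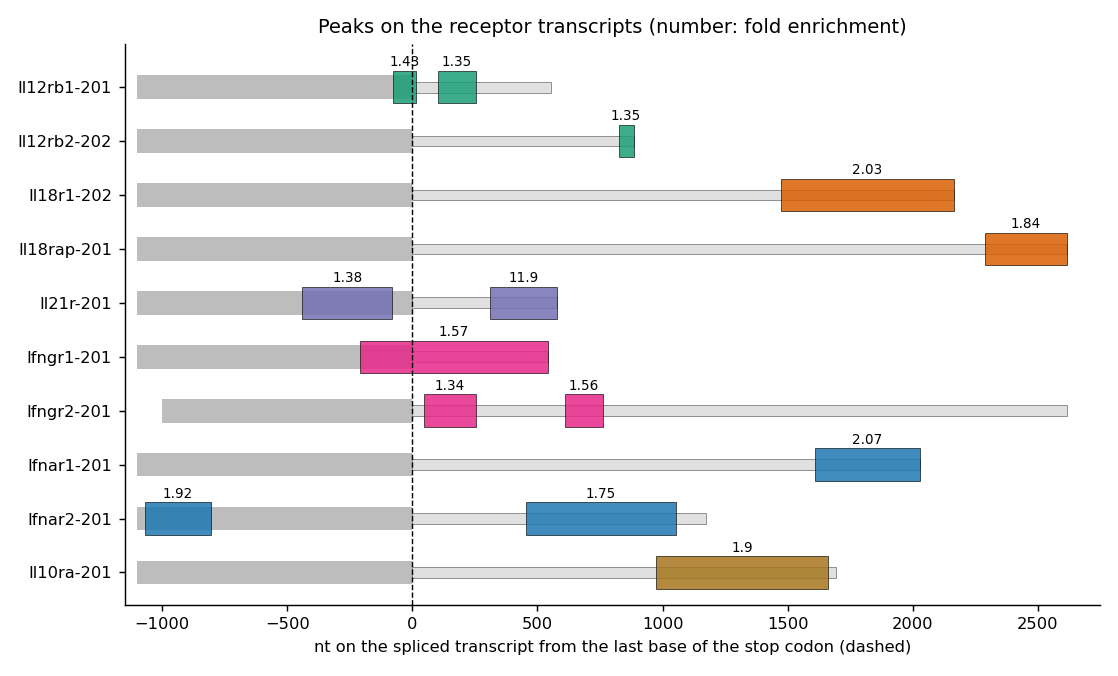
Receptor mRNAs drawn to scale from the last base of the stop codon (dashed line), with the end of the coding sequence in grey (cut at the left), the 3′ UTR as a thin bar and peaks as coloured boxes with their fold enrichment. The isoform drawn is the longest coding isoform, except for Il12rb2, and the peaks of Il18r1, Il18rap, Il21r, Ifngr1, Ifnar1 and Il12rb2 run to the end of the bar.

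The receptor peaks shared a label for their place on the mRNA, since 14 of 14 carried the 3′ UTR label of the authors, against 53.3% of all peaks. Placed on the longest coding isoform, which was possible for 13 of them, 10 had their centre in the 3′ UTR and 3 in the coding sequence, and over all placed peaks 56.5% lay in the 3′ UTR. The 3 coding peaks were the upstream peaks of Il12rb1, Il21r and Ifnar2. Of the 13, 12 lay wholly in the last exon (58.7% of all placed peaks), 2 held the stop codon (20.4%), and 4 had their centre within 200 nt of it (22.3%). These shares over all placed peaks include peaks with other labels. They were not matched for the 3′ UTR label that all receptor peaks carry. The receptor peaks had a median of 330 nt on the transcript, against 210 nt for other peaks with the 3′ UTR label.

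A feature noticed after the values were seen was that peaks ran to the annotated end of the mRNA. The last base of the longest coding isoform was reached by 5 of 13 peaks, those of Il18r1, Il18rap, Il21r, Ifngr1 and Ifnar1, against 22.2% of all placed peaks and 27.2% of placed peaks with the 3′ UTR label. Within 30 nt of it ended 6 peaks, with Il10ra added, against 27.0% and 34.3%. Counting peaks that held the last base of any coding isoform there were 9 of 14, in 8 genes, against 29.6% of peaks on a coding isoform and 36.0% of those with the 3′ UTR label. The 5 peaks that reached the last base of the longest isoform had a median fold enrichment of 2.03 and a median log10 p of -52.7, and the other 8 placed peaks had 1.5 and -5.03. Among other peaks with the 3′ UTR label the same order was seen, with a median of 2.4 and -8.29 in 2724 peaks that reached the last base and 1.85 and -4.3 in 7289 peaks that did not. Peaks that reached the last base were also wider. Their median was 421 exonic nt against 236.5 nt among receptor peaks, and 271 against 181 nt among the others. Width was not matched in these comparisons.

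**Figure D3:**
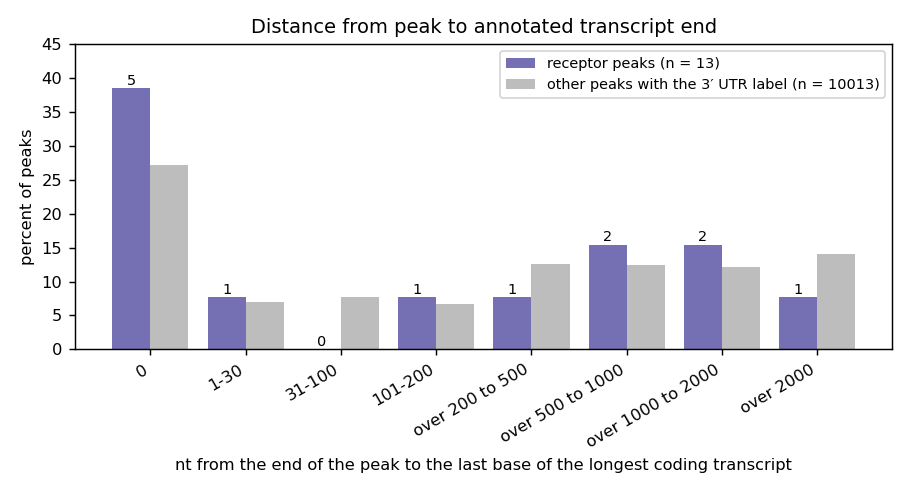
Percent of peaks (vertical) by the distance in nt from the end of the peak to the last base of the longest coding isoform (horizontal), for 13 receptor peaks (purple, counts above the bars) and 10013 other peaks with the 3′ UTR label (grey). At a distance of 0 there were 5 receptor peaks (38.5%) and 27.2% of the other peaks.

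The signal for cleavage and polyadenylation of an mRNA, AATAAA or the variant ATTAAA, was searched on the sense strand in the last 50 nt. One of them was found in 8 of the 10 receptor mRNAs (the isoform that carries the peak), and in 72.2% of 21901 longest coding isoforms, of which 59.2% had AATAAA and a further 13.0% ATTAAA alone. In 5 genes the signal lay inside a peak, and these sites are printed with the signal in capitals.
Il12rb2 (chr6:67291325-67291346, minus strand): ctcagctcATTAAActcattta
Il18r1 (chr1:40500814-40500835, plus strand): tattttgtATTAAAtctgccaa
Il18rap (chr1:40551679-40551700, plus strand): taagactgAATAAAccctttcc
Il21r (chr7:125633552-125633570, plus strand): caaagccaATTAAAataac
Ifnar1 (chr16:91507401-91507422, plus strand): tataaaatAATAAAtacatcct
Whether a matched hexamer is used as a signal was not tested. The Il21r match ends 5 nt before the last annotated base, and the other printed matches end 13 to 27 nt before it. The Il12rb2 match overlaps the DRACH site printed for that gene. It lies in the peak where reads of Il12rb2 and Serbp1 cannot be told apart. Neither hexamer was found in the last 50 nt of Ifngr1-201, whose peak also reached the end, nor in those of Ifnar2-201.

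DRACH sites were found in all 14 receptor peaks, with 2 in the Il12rb2 peak and 17 each in the peaks of Il18r1 and Ifngr1 at the extremes. Of all placed peaks 90.0% held such a site, and of peaks within 10% of the length of a given receptor peak 70.1 to 100% did. The 13 placed peaks held 116 sites in 4974 nt, or 23.3 per kb (95% exact Poisson interval 19.3 to 28.0, counting error only). The rest of the same mRNAs held 23.0 per kb and all placed peaks 20.2 per kb, both inside that interval. Per peak, 11 of 14 held more sites than the mean of peaks of like length and 3 held fewer, the latter being the second Il21r peak (4 against 5.13), Ifnar1 (7 against 8.41) and Il10ra (10 against 13.3). The core GGAC, searched on the sense strand and part of a DRACH site unless G follows, was found in 11 of the 13 placed peaks, against 54.6% of all placed peaks. Of peaks within 10% of the length of each of these 13, 29.6 to 93.1% held it. GGAC was missing from the peaks of Il18r1 and Ifnar1 and from that of Il12rb2.

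**Figure D4:**
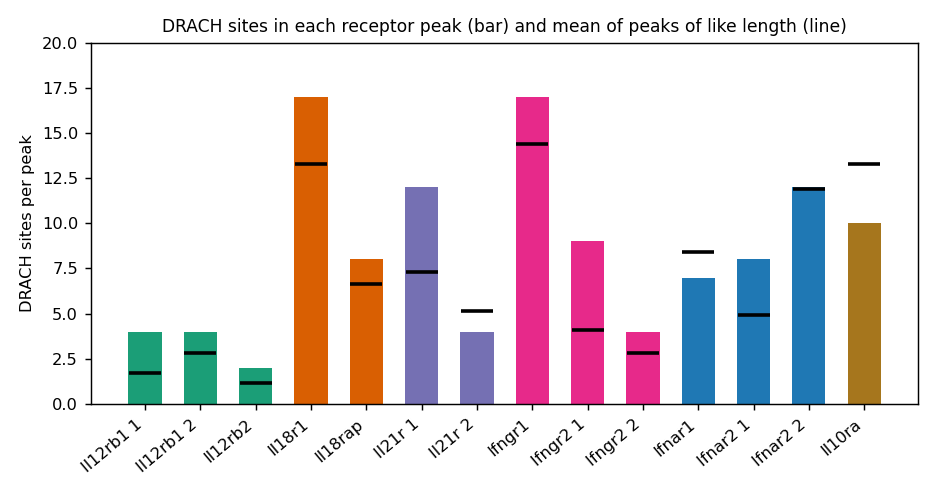
DRACH sites in each of the 14 receptor peaks (bars, coloured by receptor) and the mean number in placed peaks within 10% of the same length (black lines). The bars of Il18r1 and Ifngr1 reach 17, and the bars of the second Il21r peak, Ifnar1 and Il10ra end below their line.

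Other genes of the same or related pathways, not all of them partners of these receptors, were read from 6 lists. Of their 32 genes, 28 had a peak (46.3% of all protein-coding genes did), with 52 peaks and a median fold enrichment of 1.85. A strong peak was found in 5 of the 28, against 43.4% of protein-coding genes with a peak, a share not matched for p-value. The 3′ UTR label was carried by 36 of the 52 peaks, against 53.3% of all peaks. The last base of the longest coding isoform was reached by 26.5% of 49 placed peaks, close to the 22.2% of all placed peaks.

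Among the kinases, 4 of 4 genes had a peak, none strong, with fold enrichments from 1.26 to 2.94. The highest were 2.94 at Jak2 and 2.19 at Jak1, and Jak1 also had the lowest p-values (log10 p -111 for that peak and -20.7 for its other peak). Among the transcription factors 5 of 5 genes had a peak, from 1.15 to 3.01 and none strong. Irf9, a factor that acts below the type I interferon receptor, reached 3.01 (log10 p -34.5) and Stat3, which acts below the IL-21 and IL-10 receptors, 2.6 (log10 p -53.8). The IL-18 adaptors were alike, with a peak in 5 of 5 genes from 1.57 to 3.02. The highest of these were 3.02 at Irak2 and 2.84 at Traf6 (log10 p -13.7), and Irak1 (1.67, log10 p -23.3) had the lowest p-value.

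The strong peaks lay in the other 3 lists. In the list of other receptor chains 3 of 4 genes had a peak and Il1rl2 had none. The strong peak was at Il1rap (9.48, log10 p -1.69), a chain of the IL-1 receptor family. Il10rb followed with 3.79 (log10 p -7.42) and had the lowest p-values (log10 p -35.1 for the peak over Ifnar2 and -23.6 for one of 2.2). The peak over Ifnar2 held 2450 exonic nt of Ifnar2 and 1391 of Il10rb, so its p-value is not that of Il10rb alone. Among 9 ligands 6 had a peak and Il12a, Il21 and Il10 had none. Il23a had a fold enrichment of 115 (log10 p -139), and 432 of the 1319 exonic nt of that peak lay on coding isoforms. Il27 had 8.77 (log10 p -114), and Ifnb1 was the other gene with a strong peak (5.69, log10 p -1.77). Ifng, the effector cytokine of NK cells, had the lowest p-value with a fold enrichment of 2.33 (log10 p -208). Among the inhibitors 5 of 5 genes had a peak, and the strong one was at Usp18 (7.59, log10 p -2.94), which blocks signalling at IFNAR2. Socs3, the feedback inhibitor below cytokine receptors, had the next highest fold, 2.95 (log10 p -62.3), and its peak of 1.71 (log10 p -20.0) is given for the second lowest p-value of the list, not for its fold.

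**Figure D5:**
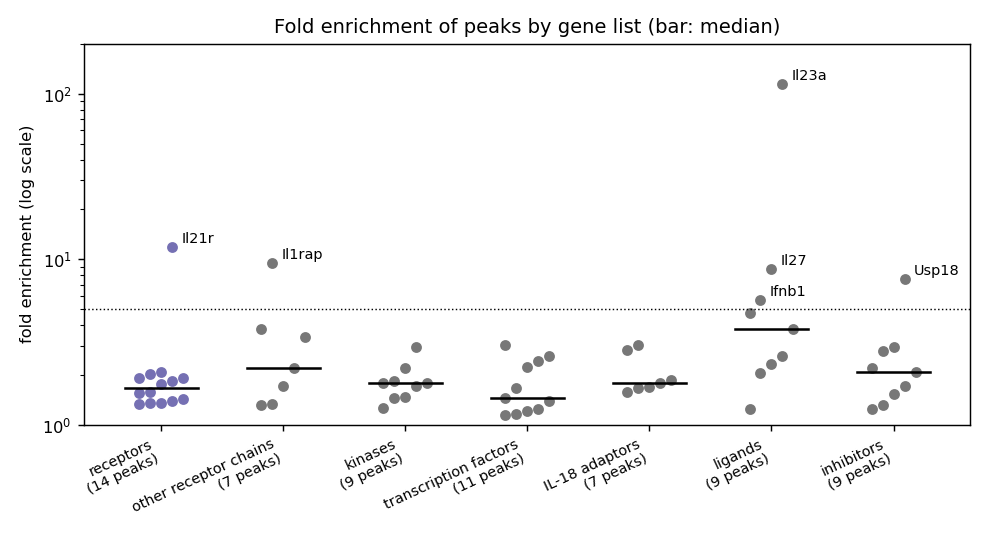
Fold enrichment of each peak (vertical, log scale) in the receptor genes (purple) and in 6 lists of pathway genes (grey), with the median as a bar and the dotted line at 5. The receptor median is 1.66, the list medians run from 1.45 for transcription factors to 3.79 for ligands, and genes with a peak above the dotted line are named.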

How the data were processed

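MeRIP-seq libraries were 2 m6A immunoprecipitates and 2 inputs, grouped by the labels. Per its methods, the study mapped trimmed reads with HISAT2 (GRCm38 per the labels), used exomePeak for peak calling and ChIPseeker for annotation. The authors deposited 1 list for all libraries. Its fold enrichment is a ratio made by the authors, its significance is a deposited score, the log10 of the unadjusted p-value, and its width includes introns. How replicates were combined is not given in the sources used here, and the depth is unknown. No error between replicates could be computed.

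Of 20751 rows, 24 repeats were dropped. Gene models were GENCODE M21 (GRCm38), in which 12332 of 12351 identifiers were found. Peaks were placed on the longest coding isoform of a gene (by spliced length) by the centre of their exonic part (15706 peaks, 75.8%). The Il12rb2 peak is described on another isoform. Placement and motif counts were tested on simulated data with 1000 transcripts and recovered in 100%. Printed sequences came from the GENCODE transcripts and were checked against the GRCm38.p6 genome with samtools 1.23.1. The planned edgeR test was not run, since the list holds no counts. The genes, lists and alternatives were chosen with earlier results of these data known. All receptor genes are named, and in each list of pathway genes the 2 peaks of highest fold and the 2 of lowest p-value. Other genes are named to complete counts. Some genes of the lists are not reported here by name.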

Additional observations from a re-analysis of the deposited data

How the results depend on the processing

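With no replicate error, a count was taken as alike within 1.5 times, the median fold within the interquartile range of the receptor peaks, and shares and densities within their 95% interval. At a fold enrichment of at least 2, 3 receptor genes and 3 peaks remained. The share of peaks in the 3′ UTR was 76.9% of 13 placed peaks by centre and 100% of 14 in the region column of the authors. By the centre of the genomic span it was 83.3%. That share leaves out the upstream Ifnar2 peak, whose genomic centre lies in an intron, and adds no peak to the 3′ UTR. The density was 4.83 per kb for GGAC, a shorter word that is not the same measure. Peaks that reached the annotated end numbered 5, or 9 with any coding isoform, which the larger number of ends allows. The alternatives for the annotated end and the median without peaks on exons of another gene (1.66) were chosen after seeing the data. The remaining alternatives (a p-value under 0.001, a fold enrichment of at least 3 or 10, merged peaks, coding isoforms only, the strongest peak per gene, all exons) stayed within these limits. Some of them could not change the counts. No receptor peak had a fold between 2.07 and 11.9, and no receptor peaks overlap each other. The isoform named by the authors could not be used, since the 3′ UTR label names none. No paired analysis was possible because the list gives no value per library, and for the same reason no replicate could be left out.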
